A study of Gallus gallus with 2 samples.

Results

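The contacts that the HoxD locus made far along its own chromosome were read from pairs with one mate inside the captured segment of chromosome 7 (chr7:14946001-17870000, galGal5, 2924 kb) and the other mate elsewhere on chromosome 7. Pairs were members when both mates had a mapping quality of at least 30. Beyond the borders of the segment, the rule used neither the partner's position on chromosome 7 nor the library. The forelimb bud library held 1910315 such pairs of 31468978 that passed the same mapping quality, which was 6.07%, and the hindlimb bud library held 1904700 of 35045660, which was 5.43%. Just inside the limit, at qualities of 30 to 39, lay 37445 forelimb and 38035 hindlimb pairs, and just outside it, at 20 to 29, lay 185678 and 185723. Outside mates were counted in 100-kb bins. Of 370 bins of chromosome 7, 339 lay wholly outside the segment and 334 were kept for the distance-corrected profile. Of the 5 bins left out, 4 adjoining ones (chr7:7400001-7800000) held no read at all in either library and 1 fell under the minimum of interchromosomal coverage.

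The HoxD cluster is a row of transcription factor genes that pattern the limb along its axes. It lies between a pair of regulatory landscapes, T-DOM, whose enhancers act in the early and proximal limb, and C-DOM, whose enhancers act in the digits, and each landscape forms a topologically associating domain (TAD), a stretch of chromatin that contacts itself more than its neighbours. At a larger scale, chromatin of a chromosome sorts into a pair of compartments, so that gene-rich, active stretches meet others of that kind over many megabases, and gene-poor stretches meet each other. In birds the small microchromosomes are gene-rich and lie together in the nucleus, and stretches of the large chromosomes that meet them tend to be gene-rich as well.

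Capture Hi-C (CHi-C) was carried out on wild-type White Leghorn chick embryos at stage HH20. In CHi-C, cross-linked chromatin is cut with DpnII and ligated, probes pull down fragments of one locus, and each read pair joins fragments that were ligated. Whole forelimb buds gave 1 library and whole hindlimb buds gave the other, and they shared strain, stage, dissociation with collagenase and the same probes, so that every cell type of a bud entered together. With 1 library per group there was no replicate check, and all intervals given here are 95% intervals for counting error only, which do not cover repeated molecules from PCR. Pairs that repeated the same fragment positions and strands made up 1.02% of the forelimb and 1.005% of the hindlimb members. Comparisons of forelimb and hindlimb below therefore compare the libraries and not the limbs.

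Long-range contacts took the same share of captured pairs in both libraries. Of all pairs with exactly 1 mate in the segment, the other mate lay on chromosome 7 in 41.6% of forelimb and 41.6% of hindlimb pairs, and on another chromosome in the remainder. The shares differed by -0.056 percentage points (two-sided Fisher's exact test between the libraries, p = 0.0832). HoxD itself (chr7:16315001-16395000, 80 kb) had 24528 forelimb and 25285 hindlimb members, which was 1.28% and 1.33% of all members for 2.74% of the segment's length. From HoxD, 35.8% of forelimb and 35.8% of hindlimb pairs with 1 mate in it reached chromosome 7 outside the segment. HoxD lies well inside the segment, and these shares were not corrected for its distance from the borders.

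Counts fell steeply with distance and then levelled off. The bin nearest the lower border, 46 kb away, held 44398 forelimb and 43778 hindlimb pairs, and the bin nearest the higher border, 30 kb away, held 59160 and 58882. The median kept bin held 4241 forelimb pairs and the poorest 1553. Within 0.5 Mb of the segment lay 18.1% of forelimb and 17.8% of hindlimb members, whereas partners more than 10 Mb away made up 25.8% in both libraries. The hindlimb library had slightly smaller shares at short range and larger ones at middle range. The log2 ratio of hindlimb over forelimb was -0.04 (interval -0.05 to -0.03) from 0.5 to 1 Mb, 0.03 (0.03 to 0.04) from 5 to 10 Mb and 0.00 (-0.01 to 0.01) beyond 10 Mb.

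The partners lay more often on the higher-coordinate side, which reached 19.1 Mb from the segment, than on the lower side, which reached 14.9 Mb. The lower side held 43.7% of members in both libraries (Fisher's exact p = 0.355 between the libraries). Over the distances that both sides hold, the lower side had 47.1% in each. Mates in HoxD looked more to the lower side than those of the whole segment. Over the same distances 50.9% of forelimb (interval 50.3 to 51.6) and 49.9% of hindlimb HoxD pairs (49.3 to 50.6) had their partner there. The libraries differed by -1.02 percentage points (Fisher's exact p = 0.0303). Over all distances the lower-side share of HoxD was 46.2% and 45.1% (Fisher's exact p = 0.0176). Both of these differences missed the 0.05 level without the reads of either of lanes 1 and 2, with Fisher's exact p from 0.0635 to 0.137. Over the kept bins the lower-side share expected from visibility and distance was 48.4% for the segment and 49.1% for HoxD in each library. The observed shares were 43.3% and 46.2% in forelimb and 43.2% and 45.1% in hindlimb. Both sets of mates thus lay below expectation on the lower side, HoxD by less.

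**Figure D1:**
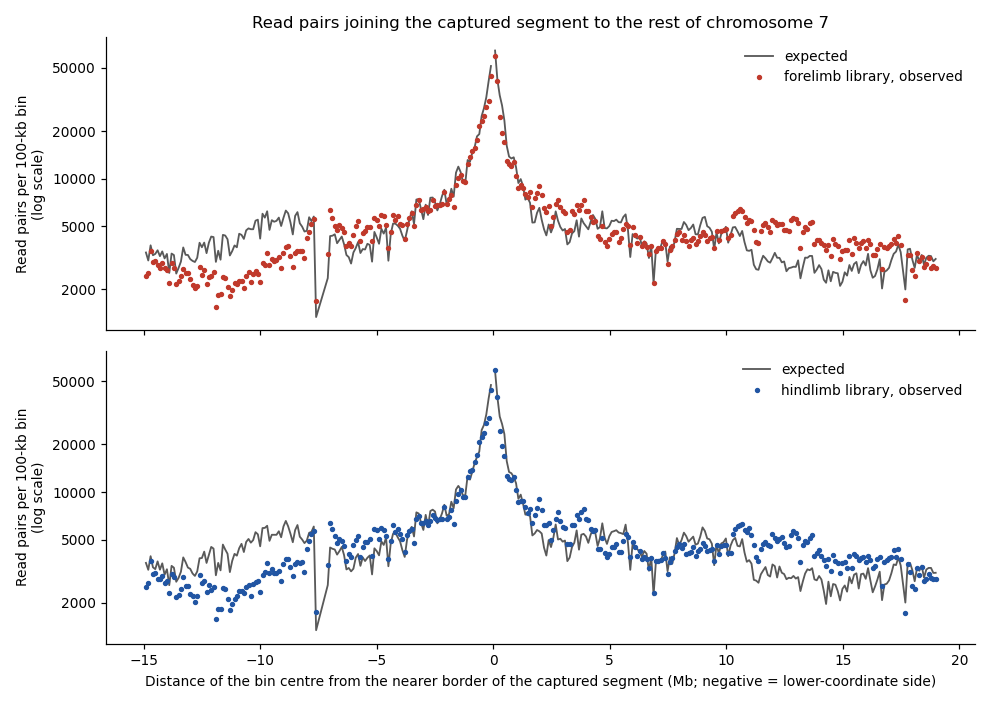
Read pairs per 100-kb bin (log axis) against the distance of the bin from the nearer border of the captured segment in Mb, negative on the lower-coordinate side, for the forelimb library (upper panel) and the hindlimb library (lower panel). Points are observed counts and grey lines the counts expected from visibility and distance; the points run below the line on the far lower side, where the observed count was as low as 0.453 times the expected in forelimb, and above it on the far higher side, where it reached 2.03 times.

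To separate partners from distance, each bin's count was divided by an expected count. The expectation joined the visibility of both ends, taken from interchromosomal pairs, with a decay with distance. The decay came from chromosome 7 pairs that had no mate in the segment. Members entered only through the scaling to a median ratio of 1 over the kept bins. It was done for the segment, HoxD and the rest of the segment each by itself, so each ratio is relative to its own median. A bin was called a peak at an observed over expected ratio of at least 1.5, or a depletion at no more than the reciprocal, where the interval excluded 1 in both libraries. The forelimb ratios spanned 0.453 to 2.03 and the hindlimb ratios 0.463 to 1.94. Their SD across bins was 0.47 and 0.45 on the log2 scale, against 0.02 from counting alone. The forelimb and hindlimb log2 ratios had a Pearson correlation of 0.990 over the 334 bins, which describes profiles that share chromosome, probes and mappability.

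All peaks lay in one broad stretch on the far higher side. The 24 peak bins were 7.19% of the kept bins. They formed 6 merged regions between chr7:28800001 and chr7:32500000, all more than 10 Mb from the segment. The strongest region, chr7:30200001-31300000, joined 11 bins and lay 12330 kb away. It held 54337 forelimb pairs where 30904 were expected, a ratio of 1.76 (interval 1.74 to 1.77), and 53792 hindlimb pairs where 31514 were expected, a ratio of 1.71 (1.69 to 1.72). Its summit was the bin chr7:30700001-30800000, with 5652 forelimb pairs and a ratio of 2.03, and with 5701 hindlimb pairs and a ratio of 1.93. With interchromosomal coverage as visibility, both libraries thus placed about 2 times the expected contacts at this bin, more than 12 Mb away. The bin was picked as the highest in forelimb, and no bin reached a fold of 2 in both libraries.

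The other named peaks flanked this one. The region chr7:32000001-32200000 had ratios of 1.64 in forelimb and 1.64 in hindlimb. At chr7:31400001-31600000 they were 1.63 and 1.61. At chr7:29600001-30100000 the ratios were 1.63 and 1.57, and at chr7:28800001-29100000 they were 1.58 and 1.59. The call required a raised ratio in both libraries, so these values describe the regions' sizes only. Over the whole stretch from chr7:27400001 to chr7:36900000 the segment had 1.35 times the expected pairs in forelimb and 1.31 times in hindlimb. How many bins passed the peak threshold depended on the visibility used: 3 did when visibility was the number of restriction fragments seen in a bin, 2 of them among the 24.

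The depletions formed 1 block on the far lower side. The 40 depletion bins, 12.0% of the kept bins, adjoined each other from chr7:2600001 to chr7:6600000. This block held 104449 forelimb pairs where 189289 were expected, a ratio of 0.552 (interval 0.548 to 0.555), and its hindlimb ratio was 0.556 (0.553 to 0.560) from 107615 pairs. Its single bins spanned 0.453 to 0.640 in the forelimb library and 0.463 to 0.657 in the hindlimb library, a range whose upper end the call itself sets. With a decay fitted to the members' own profile 22 bins were depleted, 21 of them among the 40.

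The profile rose from the far to the near side of the 4 bins without reads, and part of the rise lay on the far side. In the 20 bins just beyond them, chr7:5400001-7400000, the segment had 0.674 times the expected pairs in forelimb and 0.680 times in hindlimb. In the 20 bins on the near side, chr7:7800001-9800000, it had 1.27 and 1.248 times. The compartment class described below was positive in 20 of the 20 far bins and in 4 of the 20 near bins. From the 5 nearest bins on the far side to the 5 nearest on the near side the forelimb ratio rose from 0.929 to 1.30 and the hindlimb ratio from 0.944 to 1.30. Single bins of the far 5 reached 1.26 in forelimb and 1.29 in hindlimb. Those of the near 5 began at 1.14 and 1.19, so the ranges overlapped. Over the same bins, 5 and 4 of which were positive, the mean eigenvector fell from 1.12 to 0.18 and the mean microchromosome share from 31.0% to 28.0%. What the unread stretch holds is not given in the sources used here. Over all of the 74 bins on the far side of it the ratios were 0.651 and 0.656, and over the 71 bins between it and the segment they were 0.996 and 1.00.

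Contacts of the whole segment with the ends of the chromosome were not raised, whereas those of HoxD with the last 1 Mb were. The first 1 Mb held 28309 forelimb and 28943 hindlimb pairs, with ratios of 0.842 (interval 0.832 to 0.852) and 0.851 (0.841 to 0.861). The last 1 Mb, chr7:35900001-36900000, held 29113 and 29247 pairs, with ratios of 0.939 (0.929 to 0.9502) and 0.926 (0.915 to 0.936). From HoxD the last 1 Mb had 1.16 (interval 1.06 to 1.26) and 1.23 (1.13 to 1.33) times the expected pairs, and the first 1 Mb 0.854 (0.775 to 0.939) and 0.837 (0.759 to 0.921) times. By the compartment class described below, 10 of 10 bins of the last 1 Mb and 7 of 10 of the first were positive. Whether the HoxD value went with the chromosome end or with the class was not tested. For the whole segment the last 1 Mb changed direction with the visibility, with a log2 ratio of 0.29 in forelimb and 0.25 in hindlimb when restriction fragments were counted.

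**Figure D2:**
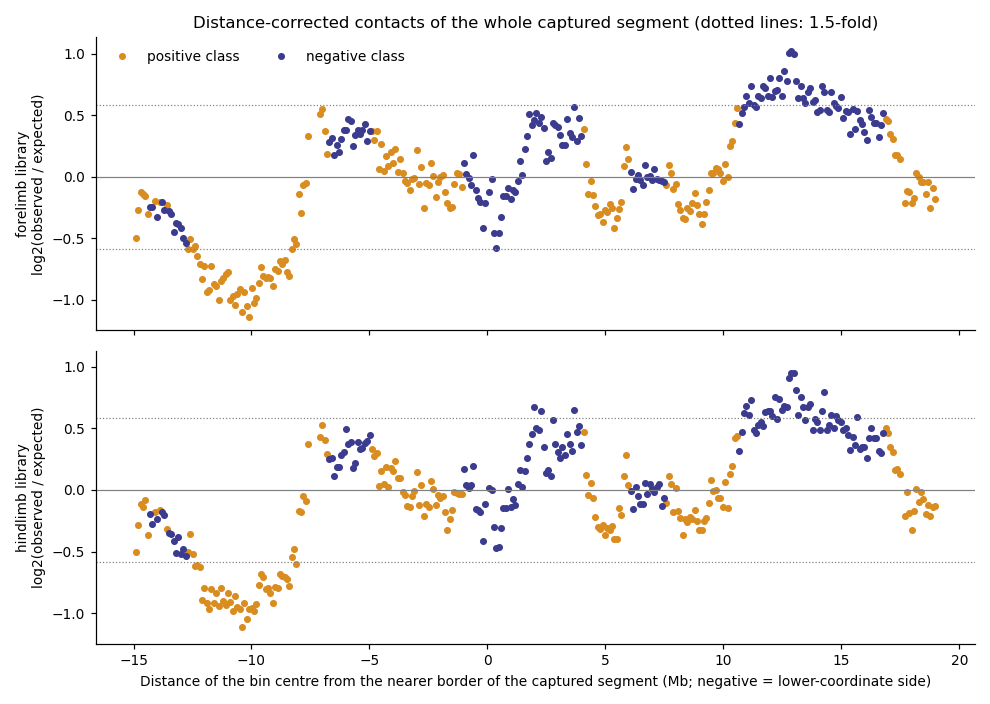
Log2 of observed over expected pairs for each of the 334 kept 100-kb bins against distance from the nearer border of the segment in Mb, negative on the lower-coordinate side, for the forelimb library (upper panel) and the hindlimb library (lower panel), with orange points for bins of the positive class, blue points for bins of the negative class and dotted lines at 1.5-fold. The block of 40 depleted bins on the far left is all orange, and the 24 peak bins on the right are all blue.

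Each outside bin was put in one of 2 compartment classes from pairs that were not members. The class was the sign of the first eigenvector of chromosome 7 contacts with no mate in the segment, which carried 15.6% of the variance, and positive bins were those with the larger share of microchromosome mates. The eigenvector and that share had a Pearson correlation of 0.877 over the 334 bins, and both were drawn from the same libraries. Of the kept bins, 176 were positive and 158 negative. All 24 peak bins were negative, with a median microchromosome share of 21.3% of interchromosomal mates, against 26.3% over all kept bins. All 40 depletion bins were positive, with a median share of 32.4%.

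With interchromosomal coverage as visibility, the captured segment as a whole met negative bins more than positive ones. Pooled over bins, it had 0.873 times the expected pairs with positive bins and 1.07 times with negative bins in forelimb, and 0.869 and 1.09 times in hindlimb. The log2 ratio of positive over negative, called the class ratio from here on, was -0.30 in forelimb and -0.33 in hindlimb. Its zero moved with the visibility, as given below for T-DOM and C-DOM. Among pairs with no mate in the segment, the median interchromosomal share was 41.9% in peak bins and 45.2% in depletion bins. Over all kept bins it was 44.0%. The kept bins within 1 Mb of the segment were negative throughout, 10 of 10 on each side. Pooled over each side their ratios were 0.849 to 0.929, with single bins up to 1.13 in forelimb and 1.14 in hindlimb, but a decay fitted to the members' own profile turned the pooled ratios to between 1.16 and 1.19. The class ratio was not alike in all stretches of the chromosome. It was -0.25 and -0.28 on the higher side. On the lower side, between the unread bins and the segment, it was 0.05 (interval 0.04 to 0.06) and 0.01 (0.01 to 0.02). There the 10 bins within 1 Mb held 234961 of 318988 forelimb and 226456 of 310892 hindlimb pairs with negative bins. The value of this stretch thus rested largely on bins whose pooled ratio turned with the decay.

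Stretches next to the captured segment shared much of this profile. From pairs with no mate in the segment, a flank of the same length on the higher side, chr7:17920001-20844000, had 2.11 times the expected contacts with the strongest peak region in forelimb (1273 pairs) and 2.11 times in hindlimb (1385 pairs). It had 0.514 and 0.517 times with the depleted block. The flank on the lower side, chr7:11972001-14896000, had 1.33 (1.24 to 1.44) and 1.39 times with the same peak region and 0.667 and 0.697 times with the depleted block. The log2 profile of the segment correlated with that of the higher flank at 0.882 in forelimb and with that of the lower flank at 0.671, over 304 bins each that share their visibility and decay terms. Other peak regions were not all shared by the lower flank, which had 1.19 (0.953 to 1.46) and 1.03 (0.813 to 1.28) times the expected contacts at chr7:32000001-32200000. The strongest peak region and the depleted block were therefore not particular to the captured segment.

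HoxD had other long-range partners than the pooled rest of the captured segment, which holds stretches both like and unlike HoxD. For every bin the observed over expected ratio of mates in HoxD was divided by that of all other mates of the segment, and a bin was called where this passed 1.5-fold with the interval excluding 1 in both libraries. HoxD had more contacts than the rest with 17 bins, 5.09% of the kept bins, and fewer with 16, or 4.79%. All 17 higher bins were of the positive class, and all 16 lower bins were of the negative class. The higher bins were not particular to HoxD. Pooled over them, HoxD had 1.51 and 1.52 times the expected pairs in forelimb and hindlimb, a height that follows from the choice. T-DOM had 1.22 and 1.18 times, its window chr7:16200001-16300000 next to HoxD 1.39 and 1.36 times, and C-DOM 0.91 and 0.95 times. Over the 334 bins the log2 ratio of HoxD over the rest had a Pearson correlation of 0.774 between the libraries, and of 0.638 in forelimb and 0.667 in hindlimb with the eigenvector. For the whole segment the correlation of the log2 ratio with the eigenvector had the other sign, -0.613 and -0.618.

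The bins that HoxD met more than the rest of the segment did were grouped along the chromosome. On the lower side 8 of them lay between chr7:11700001 and chr7:13400000, from 1546 kb to 3146 kb from the segment. Over the 17 bins of that span, 8 of them called, HoxD had 1.43 times the expected pairs in forelimb and 1.35 times in hindlimb. The rest of the segment had 0.955 and 0.935 times. On the higher side 4 lay between chr7:22200001 and chr7:22800000. Over the 6 bins of that span HoxD had 1.35 and 1.53 times the expected pairs and the rest 0.848 and 0.872 times. Both spans were drawn from their first to their last called bin, so part of the contrast follows from the choice. The other 5 were scattered, 3 of them on the far lower side and 2 on the far higher side. A higher call did not always mean a raised HoxD ratio. Over the span chr7:5100001-6200000, which holds 2 called bins, HoxD had 0.775 and 0.846 times the expected pairs. The rest had 0.568 and 0.574 times there. Of the 17 higher bins 2 were depletions of the whole segment, which was 11.8% of the first list and 5% of the second. Over all kept bins 12.0% were depletions and 5.09% were higher bins, so the overlap was near the general share.

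The leading HoxD partner was chr7:11700001-11800000. It held 227 forelimb and 202 hindlimb HoxD pairs where 109 and 107 were expected, ratios of 2.09 (interval 1.82 to 2.38) and 1.88 (1.63 to 2.16). The rest of the segment had 7096 and 6858 pairs with this bin, close to its expectation at ratios of 0.971 and 0.952. HoxD over the rest was 2.15 (1.87 to 2.45) in forelimb and 1.98 (1.71 to 2.28) in hindlimb. Within it the share of HoxD among segment mates was highest at 3.63% in forelimb for chr7:11720001-11740000, from 55 pairs that used 25 different outside fragments and 39 different HoxD fragments. In hindlimb it was highest at 3.32% for chr7:11740001-11760000, from 53 pairs. The contact was thus spread over many fragments and not carried by a single ligation.

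The second partner, chr7:22700001-22800000, was met more by HoxD and less by the rest. It held 101 forelimb and 108 hindlimb HoxD pairs, with ratios of 1.45 and 1.61, whereas the rest had ratios of 0.767 and 0.812. HoxD over the rest was 1.88 (interval 1.53 to 2.30) and 1.98 (1.62 to 2.40). The third, chr7:28100001-28200000, lay 10230 kb away at the near edge of the broad peak stretch and was of the positive class. It held 161 forelimb and 130 hindlimb HoxD pairs, with ratios of 2.22 (1.89 to 2.59) and 1.79 (1.49 to 2.12), against 1.17 and 1.09 for the rest. HoxD over the rest was 1.89 (1.604 to 2.21) and 1.65 (1.37 to 1.958).

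The bins that HoxD met less lay mostly where the rest of the segment met more than expected. Of the 16, 5 lay between chr7:19600001 and chr7:21400000, where the rest had 1.30 and 1.31 times the expected pairs in forelimb and hindlimb and HoxD 0.988 (interval 0.933 to 1.04) and 1.07 (1.009 to 1.13) times. Another 7 lay between chr7:29100001 and chr7:32700000, in and around the peak regions, where the rest had 1.63 and 1.57 times and HoxD 1.26 and 1.2502 times the expected pairs. Both spans were drawn around bins called lower for HoxD, so part of the contrast follows from the choice. Among the named peak regions, HoxD had 1.503 (interval 1.39 to 1.62) and 1.498 (1.39 to 1.61) times the expected pairs with the strongest, and its ratio over the rest was 0.851 and 0.875. At chr7:31400001-31600000 HoxD over the rest was 1.012 (0.859 to 1.18) and 0.913 (0.767 to 1.08), intervals that held 1. At chr7:32000001-32200000 HoxD itself had 1.05 (0.819 to 1.33) times the expected pairs in forelimb and 0.689 (0.501 to 0.925) times in hindlimb, so this region was not raised for HoxD. Of the 16 lower bins 3 were peaks of the whole segment, which was 18.8% of the first list and 12.5% of the second. Over all kept bins 7.19% were peaks and 4.79% were lower bins. The strongest differences were chr7:32000001-32100000, with HoxD over the rest at 0.525 (interval 0.354 to 0.751) in forelimb and 0.526 (0.352 to 0.757) in hindlimb, chr7:29100001-29200000 at 0.508 and 0.599, and chr7:21000001-21100000 at 0.482 and 0.638. These rested on 30 and 29, 30 and 34, and 32 and 43 HoxD pairs.

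Bins chosen in one library had the same direction in the other with few exceptions. The 22 bins called higher from the forelimb library by itself, 6.59% of kept bins and the 17 included, were all higher in hindlimb too, where HoxD over the rest pooled over them was 1.64 (interval 1.58 to 1.71). Of the 31 bins called higher from the hindlimb library by itself (9.28%), 30 were higher in forelimb, at a pooled ratio of 1.53 (1.48 to 1.58). Of the 40 bins called lower in forelimb (12.0%), 39 were lower in hindlimb, at 0.702 (0.669 to 0.736), and of the 34 called lower in hindlimb (10.2%), 33 were lower in forelimb, at 0.667 (0.633 to 0.703). Fewer bins had an interval in the other library that excluded 1. Of the bins called higher these were 22 of the 22 from forelimb and 26 of the 31 from hindlimb. Of the bins called lower they were 23 of the 40 and 25 of the 34. Without the reads of lane 4, 10 bins were called higher in both libraries, all of them among the 17.

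**Figure D3:**
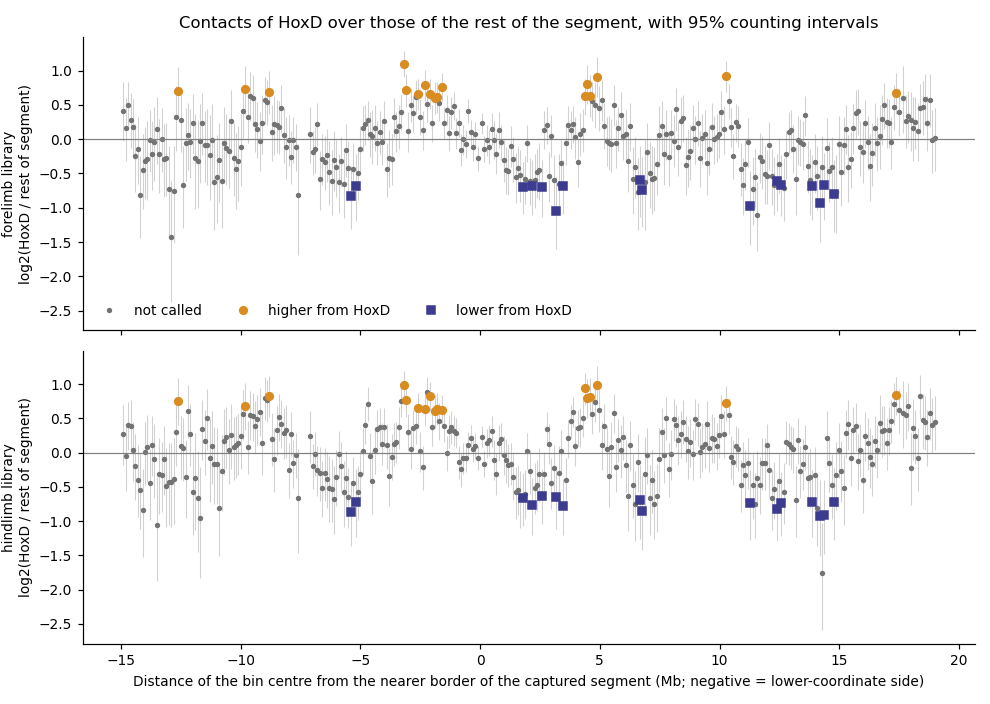
Log2 of the observed over expected ratio of HoxD mates over that of all other mates of the segment, per 100-kb bin, against distance from the nearer border of the segment in Mb, negative on the lower-coordinate side, for the forelimb library (upper panel) and the hindlimb library (lower panel). Vertical grey lines are 95% counting intervals; the 17 orange circles, called higher in both libraries, gather about 3 Mb below and 5 Mb above the segment, and the 16 blue squares, called lower, lie in between and beyond.

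By class, HoxD differed from the pooled rest of the segment, while its neighbour on the T-DOM side was no lower than HoxD, as the values along the segment show. The class ratio of HoxD was 0.06 (interval 0.02 to 0.10) in forelimb and 0.08 (0.04 to 0.11) in hindlimb, against -0.30 and -0.33 for the rest. HoxD exceeded the rest by 0.36 (0.32 to 0.40) in forelimb and by 0.41 (0.37 to 0.44) in hindlimb. The excess was present on each side, at 0.35 and 0.43 on the higher side and at 0.42 and 0.44 on the lower side between the unread bins and the segment. The level of HoxD alone was less firm than its difference from the rest: over bins at least 1 Mb away it was -0.02 (-0.06 to 0.02) in forelimb and 0.02 (-0.02 to 0.06) in hindlimb, whereas the excess over the rest was then 0.53 and 0.56. The stretches from 1 to 3 Mb on either side show the excess with all bins of 1 class in each, though both overlap spans of called HoxD bins. On the lower side, where 20 of 20 bins were positive, HoxD had 1.32 and 1.26 times the expected pairs and the whole segment 0.954 and 0.944 times (forelimb and hindlimb). On the higher side, where 0 of 20 were positive, HoxD had 0.939 and 0.978 times and the whole segment 1.18 and 1.19 times. HoxD was not raised with every positive stretch. In the depleted block, where 40 of 40 bins were positive, it had 0.609 (interval 0.580 to 0.638) and 0.670 (0.640 to 0.701) times the expected pairs. The rest of the segment had 0.552 and 0.555 times there.

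The higher bins also met each other, as did the lower bins. Among pairs with no mate in the segment and at least 2 Mb apart, the 17 higher bins had 1.12 times the expected contacts among themselves in forelimb (395 pairs, interval 1.02 to 1.24) and 1.28 times in hindlimb (501 pairs, 1.17 to 1.40). All positive bins together had 1.08 and 1.09 times, so that the forelimb value was not set apart from that of positive bins in general. The 16 lower bins had 1.74 and 1.80 times the expected contacts among themselves, and negative bins in general 1.37 and 1.39 times. Between the higher and the lower bins the ratio was 0.578 (0.521 to 0.639) in forelimb and 0.610 (0.555 to 0.670) in hindlimb, below the 0.821 and 0.814 of positive with negative bins in general. The HoxD bins were chosen from their contacts with HoxD, and these values come from other read pairs of the same libraries.

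The class ratio changed sharply along the captured segment. Across 28 windows of 100 kb its forelimb values spanned -0.85 to 0.11 and its hindlimb values -0.89 to 0.12. The 7 windows from chr7:15000001 to chr7:15700000, at the lower end of the segment, had the lowest values, from -0.89 to -0.63 over both libraries, whereas no other window fell under -0.32. Only the windows chr7:16200001-16300000 and chr7:16300001-16400000, which hold the end of T-DOM next to HoxD and HoxD itself, had values above 0, and they did so in both libraries. The first of them lies outside HoxD and had 0.11 (interval 0.08 to 0.13) and 0.12 (0.09 to 0.14), no lower than HoxD with 0.06 and 0.08, so that a value above 0 was not particular to HoxD. The windows from chr7:16700001 to chr7:16900000 beyond C-DOM had values from -0.04 to -0.00. T-DOM (chr7:15925001-16315000) had a class ratio of -0.04 (interval -0.05 to -0.03) in forelimb and -0.09 (-0.10 to -0.08) in hindlimb. C-DOM (chr7:16415001-16695000) had -0.31 (-0.32 to -0.29) and -0.22 (-0.23 to -0.20). The zero of this scale moved with the visibility, and with restriction fragments counted T-DOM rose to 0.21 in both libraries and C-DOM to -0.05 and 0.09, with T-DOM above C-DOM as before.

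The class ratio declined across the HoxD cluster. In windows of 20 kb the class ratio was 0.23 (interval 0.16 to 0.30) in forelimb and 0.22 (0.15 to 0.29) in hindlimb at chr7:16320001-16340000, on the T-DOM side of the cluster. It was 0.15 and 0.16 in the next window. At chr7:16360001-16380000 it had dropped to -0.14 (-0.22 to -0.05) and -0.01 (-0.10 to 0.08), and at chr7:16380001-16400000 to -0.22 (-0.30 to -0.15) and -0.21 (-0.28 to -0.13). The last of these windows runs past the end of HoxD at chr7:16395000. In the window beyond it, chr7:16400001-16420000, the values were -0.29 and -0.24. The lower 40 kb of HoxD, on the T-DOM side, had a class ratio of 0.22 (0.17 to 0.27) and 0.20 (0.15 to 0.25), and the higher 40 kb, on the C-DOM side, had -0.16 (-0.21 to -0.10) and -0.10 (-0.16 to -0.05). Long-range partners thus differed by class between the ends of the same gene cluster in each library.

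**Figure D4:**
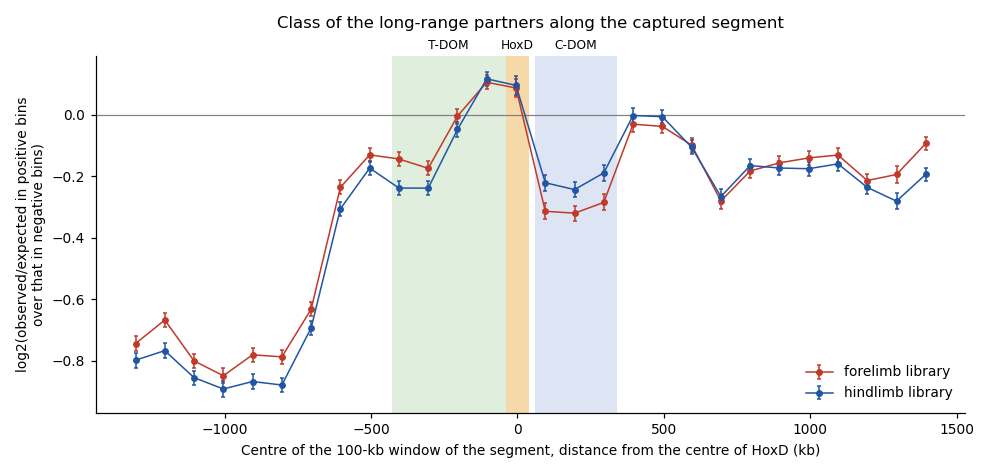
Class ratio (log2 of observed over expected in positive bins over that in negative bins) of 100-kb windows of the captured segment against the distance of the window from the centre of HoxD in kb, with 95% counting intervals, for the forelimb library (red) and the hindlimb library (blue). T-DOM, HoxD and C-DOM are shaded; the values rise from the lowest windows on the left, from -0.89 to -0.63, to above 0 beside and at HoxD, and fall to -0.31 in forelimb and -0.22 in hindlimb over C-DOM.

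Windows of the segment differed in how much of the HoxD profile they shared, and not by distance from HoxD alone. The log2 profile of the window chr7:16200001-16300000 had a Pearson correlation with that of HoxD of 0.887 in forelimb and 0.888 in hindlimb over 314 bins at least 1 Mb away, the highest of the windows that do not overlap HoxD. The window next to HoxD on the C-DOM side, chr7:16400001-16500000, had 0.710 and 0.726, lower than chr7:16700001-16800000 beyond C-DOM with 0.844 and 0.833. The lowest was 0.139 in forelimb and 0.0479 in hindlimb, at chr7:15300001-15400000. Windows share their visibility and decay terms with HoxD, so the values serve as a ranking only. The leading partner, chr7:11700001-11800000, showed the order of T-DOM and C-DOM in its counts. T-DOM made 1633 forelimb and 1528 hindlimb pairs with it, ratios of 1.48 (interval 1.41 to 1.55) and 1.39 (1.32 to 1.46). C-DOM made 635 and 655 pairs with it, ratios of 0.972 (0.898 to 1.05) and 1.00 (0.926 to 1.08). The window chr7:15300001-15400000 made 116 and 109 pairs, ratios of 0.436 and 0.430.

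The other leading partners gave the same order of T-DOM and C-DOM, while HoxD was the highest by choice. The partner chr7:22700001-22800000 had ratios of 1.08 (interval 1.008 to 1.17) with T-DOM and 0.723 (0.645 to 0.807) with C-DOM in forelimb, and of 1.11 and 0.755 in hindlimb. The partner chr7:28100001-28200000 had 1.57 (1.48 to 1.66) with T-DOM and 1.19 (1.09 to 1.29) with C-DOM in forelimb, and 1.34 (1.26 to 1.43) and 1.18 (1.08 to 1.28) in hindlimb. T-DOM was thus above C-DOM for each of these bins in both libraries. The bins were all of the positive class and T-DOM had the higher class ratio, so this order is no separate result. The T-DOM interval of the last bin lay lower in hindlimb than in forelimb.

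**Figure D5:**
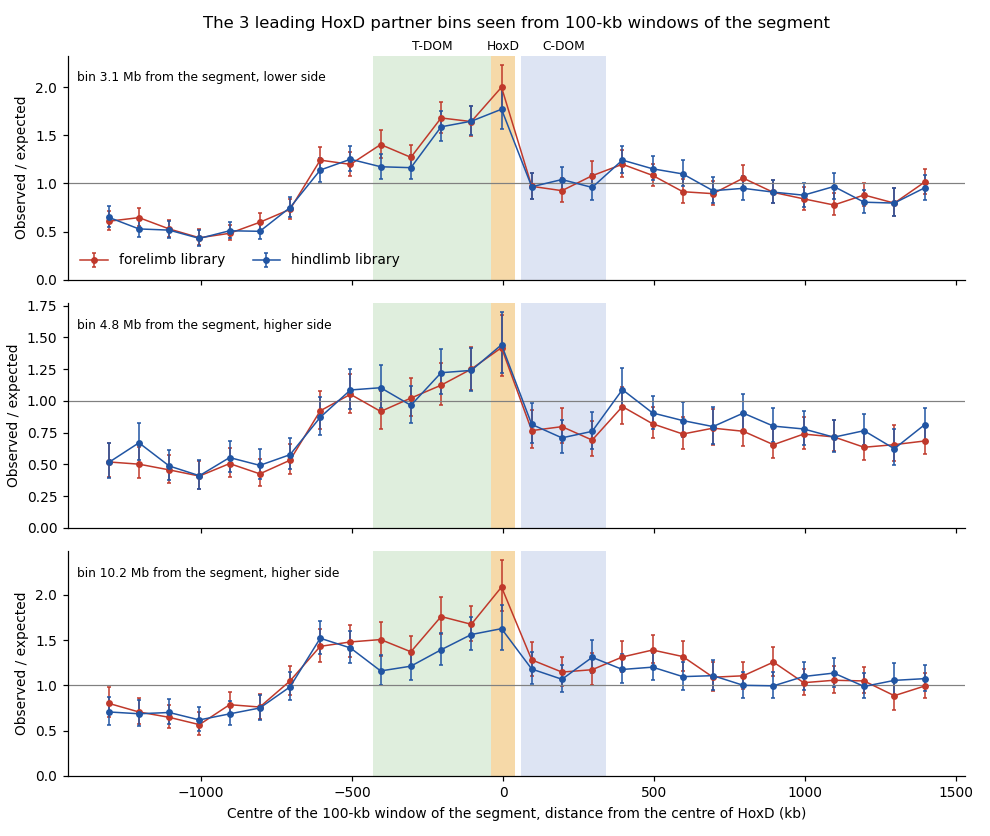
Observed over expected pairs between each of the 3 leading HoxD partner bins (panels, named by their distance from the segment) and 100-kb windows of the captured segment, against the distance of the window from the centre of HoxD in kb, with 95% counting intervals, for the forelimb library (red) and the hindlimb library (blue). The bins were chosen for their HoxD contacts, so the height at HoxD follows from the choice; beside it, the T-DOM side lies above the C-DOM side, in the first panel at 1.48 over T-DOM and 0.972 over C-DOM in forelimb.

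Between the libraries the long-range profile of the whole segment hardly changed. No bin was higher (0%) or lower (0%) in hindlimb by a log2 ratio of 0.32 or more with the interval excluding 0. The log2 ratio of hindlimb over forelimb ran from -0.22 to 0.22 across the 334 bins with an SD of 0.07. Its interval excluded 0 in 124 bins, 48 higher and 76 lower, at these small sizes. The strongest peak region was lower in hindlimb by -0.04 (interval -0.06 to -0.03) on the log2 scale and the depleted block differed by 0.01, with an interval that held 0. The nearest 1 Mb on the higher side had an observed over expected ratio higher in hindlimb by 0.08 (0.07 to 0.09). It held fewer pairs in hindlimb, 218851 against 221902 in forelimb. The higher ratio came from the expected counts, which were 244036 in hindlimb and 261259 in forelimb.

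The class ratio of C-DOM was higher in the hindlimb library, while that of T-DOM was slightly lower. The class ratio of T-DOM was -0.05 (interval -0.06 to -0.03) lower in hindlimb than in forelimb. That of the whole segment went from -0.30 to -0.33, which is no firm yardstick for T-DOM. It counts the bins within 1 Mb, all of them negative. Their log2 ratio was higher in hindlimb by 0.03 on the lower and 0.08 on the higher side. That of C-DOM was 0.09 (0.07 to 0.11) higher. HoxD differed by 0.02 (-0.04 to 0.07), an interval that held 0. Of the 28 windows of 100 kb, 15 had a lower and 4 a higher class ratio in hindlimb with intervals excluding 0. Of the 4, 3 were the windows from chr7:16400001 to chr7:16700000, which cover C-DOM, and the fourth was chr7:16800001-16900000. The C-DOM difference ran from 0.07 to 0.14 over the alternative settings, whereas that of T-DOM was 0.00 (-0.02 to 0.02) with restriction fragments counted. Single bins told less at this depth: past a log2 ratio of 0.32 in either direction, 11 bins (3.29%) differed from C-DOM, 7 (2.10%) from T-DOM and 29 (8.68%) from HoxD, whose median bin held 60 forelimb pairs.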

How the data were processed

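Per the labels and the methods of the study, the authors trimmed reads with cutadapt, mapped and filtered pairs with HiCUP and Bowtie2 on galGal5, and deposited valid pairs in which each mate has the position of its DpnII fragment's middle (a plain position, no unit of level) and a mapping quality, an integer score. Deposited contact matrices were not used. Members and lists were chosen with earlier results of these data known. Counts, expected counts and intervals were computed in Python 3.11.15 with numpy 2.4.6, scipy 1.17.1 and statsmodels 0.14.6. Visibility was interchromosomal coverage in 20-kb outside steps and 5-kb segment steps, and bins were kept at 0.25 to 3 times the chromosome 7 median. Named regions were the 5 strongest merged peaks and depletions at least 1 Mb away with the same direction under a lowess decay, the 3 leading HoxD bins each way, both chromosome ends, T-DOM and C-DOM, as the whole 5-kb steps inside the study's intervals, and an 80-kb HoxD stretch set for these comparisons, and groups of called bins less than 2 Mb apart were added. Shares had Clopper-Pearson, counts Poisson and ratios binomial intervals, differences between class ratios had normal intervals on the log scale, and no p was given across bins. Valid pairs numbered 35552269 (forelimb) and 39556492 (hindlimb), each from 4 lanes of 1 library, and lanes are no replicates. No galGal5 annotation was used, so partner bins carry no gene names.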

Additional observations from a re-analysis of the deposited data

How the results depend on the processing

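No paired analysis was possible because each group has 1 library. Settings were other decays, visibilities, mapping qualities, bin sizes, folds, single counting of repeated fragment pairs, bins at least 1 Mb away and leaving out each lane; restriction to one side of the segment, and all settings for T-DOM and C-DOM, were chosen after seeing the data. Of the values for main results, 273 kept their side of the threshold or stayed within 1.5 times of a count. The others reversed (8), weakened (9), moved (10) or strengthened (1). Of the values for named regions and bins, 311 stayed the same, 4 reversed and 1 weakened. Peaks numbered 3 with restriction fragments and 11 with all uncaptured pairs as visibility, 91 at a log2 threshold of 0.32 and 0 at a fold of 2. Depletions numbered 22 with a lowess decay, 61 at a log2 threshold of 0.32 and 2 at a fold of 2. HoxD bins numbered 26 higher and 9 lower with restriction fragments, and 10 higher without lane 4. The class ratio of HoxD in hindlimb was 0.022 with a lowess decay, 0.020 over bins at least 1 Mb away and 0.031 without lane 2, each with an interval that held 0, and in forelimb -0.016 over bins at least 1 Mb away. Between the unread bins and the segment it was 0.052 and 0.013 for the segment and 0.047 and 0.0079 for the rest of it (forelimb and hindlimb). With restriction fragments T-DOM was at 0.21 and 0.21, C-DOM in hindlimb at 0.086, and the T-DOM difference between libraries was -0.00011. The last 1 Mb was at 0.29 and 0.25 with restriction fragments, and 0.013 and 0.012 with all uncaptured pairs. By Fisher's exact test the lower-side share of HoxD differed by -0.98 (p = 0.0635) without lane 1 and -0.96 (p = 0.0644) without lane 2 in percentage points, and within common distances by -0.99 (p = 0.0759), -0.82 (p = 0.137) and, with no limit on mapping quality, -0.80 (p = 0.0721). The chromosome 7 share of captured pairs differed by -0.076 percentage points without lane 1 (Fisher's exact p = 0.0499). The causes were not tested.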
